A study of Mus musculus with 4 samples.

Results

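The genes described here copy DNA: 56 mouse genes of DNA replication and S phase, chosen by name for their function, with earlier results of these data known. The genes were looked up by symbol in a count table of 21470 genes. Of the 56, 55 had a row (Fen1 was not analysed here), and 49 passed the filter on low counts and were tested, among 6943 genes tested in all. They were measured in wild-type embryos of a cross between B6D2F1 males and ICR females, each dissected into an embryonic part, here inner cell mass (ICM), and an extra-embryonic part, here trophectoderm (TE). There were 4 groups of 5 libraries: D10 ICM, D10 TE, E4 ICM and E4 TE. Replicates 1 and 2 of both E4 groups are marked zona and all other libraries no zona, so a zona occurs at E4 only. The series title places the times before and after embryonic diapause, in which the blastocyst halts before it implants and can later resume. A deposited barcode list gives the words before for E4 and day 6 for D10, while the protocol speaks of diapause embryos throughout. The 5 libraries of a group were barcoded at reverse transcription and then mixed before PCR, so that amplification pool and group cannot be told apart. Replicates with the same number within a time came from the same litter, and no source says whether a library holds 1 embryo or several.

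Replication is prepared in G1, when the origin recognition complex, Cdc6 and Cdt1 load the ring of Mcm2 to Mcm7 on DNA. This licensing is followed in S phase by helicase activation through Cdc45, Mcm10 and the GINS proteins, and by synthesis through primase, the replicative polymerases, the sliding clamp Pcna and its loaders. The supply of nucleotides, made by ribonucleotide reductase, thymidylate synthase, thymidine kinase and dUTPase, sets how fast forks can run, and many of these genes are targets of the E2F transcription factors. In diapause the blastocyst is known to slow or stop its cell divisions.

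Total counts ran from 144276 to 1010354 per library, and CPM here are counts scaled to library size with TMM factors. A log2 difference of 1 is a doubling, and every fold is given with its standard error (SE) and a Benjamini-Hochberg adjusted p over the 6943 tested genes from edgeR's quasi-likelihood test. A gene is called where that p is under 0.05. Marker sums did not fully separate the sides: 10 trophectoderm markers summed to 4750.3 ± 929 CPM in D10 ICM libraries and 9496 ± 912 in D10 TE, and to 3049.8 ± 603 in E4 ICM and 9574 ± 1204 in E4 TE (SD, n = 5 each). Of this list, Elf5 went the other way at D10, higher in ICM by a log2 difference of 1.20 ± 0.35 (SE, adjusted p = 0.0119). At E4 it gave -0.16 ± 0.36 (SE, adjusted p = 0.769). The 10 epiblast and inner cell mass markers summed to 1328 ± 247 CPM in D10 ICM and 675 ± 212 in D10 TE, and to 2907 ± 575 in E4 ICM and 2305 ± 913 in E4 TE. Dppa5a made up most of the TE sums, at 572 ± 205 CPM in D10 TE and 2175 ± 889.9 in E4 TE, and was lower in ICM at E4 by a log2 difference of -1.44 ± 0.35 (SE, adjusted p = 0.00267). Sox2, Fgf4 and Tdgf1 had 0 counts in D10 TE, and Fgf4 and Esrrb had 0 in E4 TE. In such tissue samples, fewer cells in cycle and less of a message per cell cannot be told apart.

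Replication genes stood higher in ICM than in TE at both times. At D10, 20 of the 49 tested genes were higher in ICM, where 12.9% of all tested genes were, and 1 was lower, Cdc25a, where 12.6% of all were. At E4, 27 of 49 were higher in ICM, where 15.8% of all tested genes were, and 0 were lower, where 15.4% of all were. The estimate was positive for 44 of the 49 at D10 and 45 at E4. The median log2 difference over the 49 was 0.73 at D10 and 0.97 at E4, against 0.014 and 0.035 over all tested genes. Ranges that did not overlap, with every ICM library above every TE library, were found for 6 of the 49 at D10 and 21 at E4. Over all tested genes that held for 7.89% at D10 and 10.5% at E4. Of the 20 genes higher at D10 and the 27 higher at E4, 15 were shared. The 55 genes together summed to 4915 ± 947 CPM in D10 ICM and 3049 ± 489.6 in D10 TE, and to 5895 ± 754 in E4 ICM and 3088 ± 519 in E4 TE (SD, n = 5 each). Without the 2 E4 litters that still had a zona, 21 of 50 tested genes were higher in ICM at E4, and Cdt1, Mcm4, Wdhd1, Rfc1, Rrm1, Rrm2 and Ccne1 lost their E4 calls. With every library thinned to the lowest total, 9 of 30 tested genes were higher in ICM at D10. The shares over all genes under these 2 settings are not given here, so these counts do not show whether the excess changed.

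**Figure D1:**
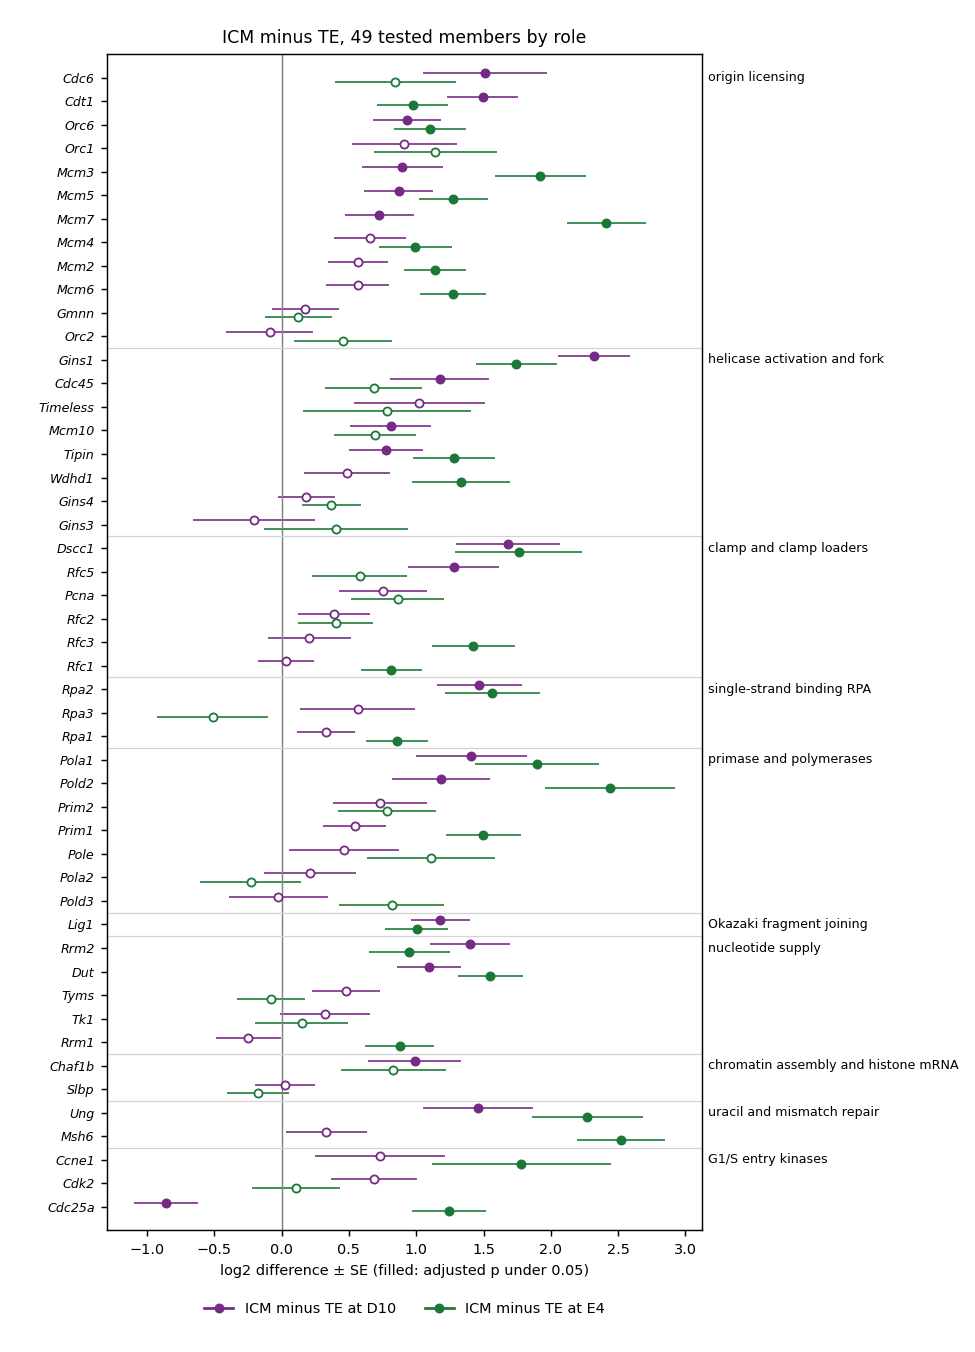
Log2 difference ICM minus TE of the 49 tested genes, ordered by role, at D10 (purple) and E4 (green). Points are estimates, bars are SE, and filled points passed the test: 20 higher and 1 lower at D10, 27 higher and 0 lower at E4.

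**Figure D2:**
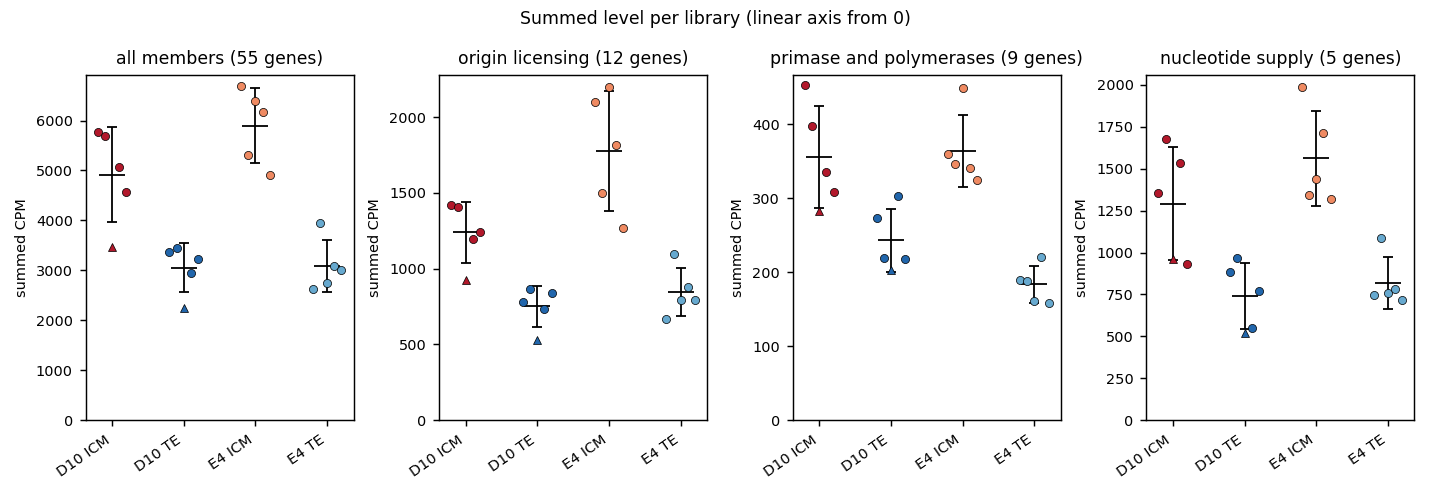
Summed CPM per library for all 55 genes in the table and for the licensing, polymerase and nucleotide genes. Points are libraries, triangles mark the libraries of replicate 3 at D10, and lines are mean ± SD (n = 5); the sum over all 55 genes was 4915 CPM on average in D10 ICM, 3049 in D10 TE, 5895 in E4 ICM and 3088 in E4 TE.

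The licensing genes summed higher in ICM at both times. Their summed level was 1421, 1409, 924, 1199 and 1242 CPM in the 5 D10 ICM libraries and 781, 866, 530.04, 733 and 842 in the 5 D10 TE libraries. At E4 it was 2099, 1498, 2198, 1819.6 and 1268 CPM in ICM and 667, 1097, 794, 880.1 and 793 CPM in TE. Every ICM library lay above every TE library of its time. Of the 12 genes, 6 were higher in ICM at D10 and 8 at E4. All 6 genes of the Mcm2 to Mcm7 ring, the motor of the replicative helicase, were higher in ICM at E4. At D10 the calls among these 6 were Mcm3, Mcm5 and Mcm7, while Mcm2, Mcm4 and Mcm6 gave log2 differences of 0.57 ± 0.22, 0.66 ± 0.27 and 0.56 ± 0.23 (SE, adjusted p = 0.0619, 0.073 and 0.0797).

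Mcm7, at chr5:138164583-138172422 (minus strand; GRCm38, GENCODE vM21, as for all positions of genes here), had the widest gap of the ring at E4. It was at 81.4, 106, 42.7, 97.7 and 61.7 CPM in D10 ICM and at 54.3, 45.1, 42.6, 51.9 and 55.6 CPM in D10 TE. In E4 ICM the values were 177, 107, 229.8, 108 and 131 CPM, and in E4 TE 22.2, 36.03, 33.1, 19.2 and 34.5 CPM. At E4 the lowest ICM library was far above the highest TE library, while at D10 replicate 3 of ICM fell among the TE libraries. The log2 difference ICM minus TE was 0.73 ± 0.26 (SE, adjusted p = 0.039) at D10 and 2.41 ± 0.29 (SE, adjusted p = 1.17e-06) at E4. Over time Mcm7 fell in ICM, by a log2 change of -0.87 ± 0.25 (SE, adjusted p = 0.0122), and had a change of 0.82 ± 0.30 (SE, adjusted p = 0.0548) in TE. The change in ICM minus that in TE was -1.69 ± 0.39 (SE, adjusted p = 0.0112). The last 500 exonic bases of Mcm7 share 64 with Cops6 on the opposite strand, whose own tissue difference was 0.75 ± 0.24 (SE, adjusted p = 0.0232) at D10 and 0.44 ± 0.26 (SE, adjusted p = 0.199) at E4; since strand use in counting is not stated, the Mcm7 level is uncertain by that share.

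Mcm5, a further ring subunit, also fell over time in ICM. Its level was 127, 109, 74.8, 141 and 123 CPM in D10 ICM and 244, 202, 309, 260.2 and 152 CPM in E4 ICM, with no overlap. In TE it was 87.5, 68.6, 27.1, 66.96 and 71.5 CPM at D10 and 77.8, 132, 106, 90.3 and 75.9 CPM at E4, and those ranges overlapped. The log2 change D10 minus E4 was -1.004 ± 0.25 (SE, adjusted p = 0.00461) in ICM and -0.60 ± 0.27 (SE, adjusted p = 0.114) in TE, and the changes did not differ past the threshold (-0.41 ± 0.37 (SE, adjusted p = 0.592)). Mcm3 averaged 50.01 ± 14.6 CPM in D10 ICM, 28.6 ± 11.9 in D10 TE, 80.4 ± 29.9 in E4 ICM and 19.8 ± 4.37 in E4 TE (SD, n = 5 each). Its tissue difference was 0.90 ± 0.30 (SE, adjusted p = 0.0301) at D10 and 1.92 ± 0.34 (SE, adjusted p = 0.000103) at E4. Mcm6 averaged 203 ± 67.96 CPM in D10 ICM, 137 ± 23.1 in D10 TE, 289 ± 70.3 in E4 ICM and 118 ± 34.4 in E4 TE, with a difference of 1.27 ± 0.24 (SE, adjusted p = 0.000282) at E4. Mcm2 and Mcm4 were higher in ICM at E4 by 1.14 ± 0.23 (SE, adjusted p = 0.000467) and 0.99 ± 0.27 (SE, adjusted p = 0.0065). In ICM 11 of the 12 licensing genes had a negative estimate over time, but Mcm5 and Mcm7 were the only ones of the 12 called; in TE 6 of 12 were negative and 0 were called.

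Among the loaders, Cdt1 brings the Mcm ring to origins. Cdt1 was at 226, 217, 182, 139 and 273 CPM in D10 ICM and 82.3, 92.1, 48.4, 50.2 and 95.3 CPM in D10 TE. In E4 ICM it was at 183, 184, 285, 286 and 119 CPM, and in E4 TE at 72.3, 120.1, 111, 144 and 89.7 CPM. The groups did not overlap at D10, and overlapped at E4 through replicate 5 of ICM. The tissue difference was 1.49 ± 0.26 (SE, adjusted p = 0.000121) at D10 and 0.97 ± 0.27 (SE, adjusted p = 0.00658) at E4. Orc6, a subunit of the origin recognition complex, was higher in ICM by 0.93 ± 0.25 (SE, adjusted p = 0.00675) at D10 and 1.103 ± 0.27 (SE, adjusted p = 0.00249) at E4. Cdc6, which works with Cdt1, was higher in ICM at D10 by 1.51 ± 0.46 (SE, adjusted p = 0.0168) and gave 0.84 ± 0.45 (SE, adjusted p = 0.157) at E4. Orc1 gave 0.91 ± 0.39 (SE, adjusted p = 0.0895) at D10 and 1.14 ± 0.46 (SE, adjusted p = 0.0583) at E4, both short of the threshold. Gmnn encodes geminin, the inhibitor of Cdt1 that keeps origins from being licensed again after S phase begins. It averaged 106 ± 37.96 CPM in D10 ICM, 98.6 ± 19.1 in D10 TE, 166 ± 32.8 in E4 ICM and 160.1 ± 50.1 in E4 TE (SD, n = 5 each). Geminin was called in none of the 5 comparisons: its tissue difference was 0.18 ± 0.25 (SE, adjusted p = 0.664) at D10 and 0.12 ± 0.25 (SE, adjusted p = 0.741) at E4, and its change over time -0.60 ± 0.25 (SE, adjusted p = 0.0782) in ICM and -0.66 ± 0.25 (SE, adjusted p = 0.0606) in TE. Orc2 was also called in none, and all of its last 500 exonic bases are shared with Nif3l1 on the opposite strand.

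Several of the D10 calls rested on few libraries or on the processing. At D10 the Mcm7 call was lost without replicate 1, 2 or 4 of D10 ICM or D10 TE replicate 1, 2, 3 or 4, each left out in turn (log2 0.60 to 0.85, adjusted p up to 0.129). Mcm3 lost its D10 call without replicate 1, 2 or 4 of D10 ICM or D10 TE replicate 1, 3 or 4 (log2 0.70 to 1.10, adjusted p up to 0.117). Mcm5 at D10 lost it without D10 ICM replicate 4 (log2 0.67 to 1.02, adjusted p up to 0.0517), and Cdc6 without D10 ICM replicate 1 (log2 1.29 to 1.78, adjusted p up to 0.0524). The D10 calls of Mcm7 and Mcm3 were also lost with no filter on low counts and with thinned libraries, that of Mcm7 with DESeq2's Wald test, and that of Mcm3 without the D10 litter of replicate 3 (adjusted p up to 0.565 and 0.256). The D10 call of Mcm5 was lost with thinned libraries (adjusted p = 0.0963). The fall of Mcm7 in ICM was lost without E4 ICM replicate 3 (log2 -0.98 to -0.62, adjusted p up to 0.0785). Cdt1, Orc6 and the E4 calls of the Mcm2 to Mcm7 genes stood with any 1 library left out.

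Of the helicase activation and fork genes, Gins1 had the largest ICM excess at D10 among the 49. Gins1 is a subunit of GINS, which together with Cdc45 turns the Mcm ring into an active helicase. It was at 113, 141, 134, 119 and 163 CPM in D10 ICM and 24.5, 29.4, 21.3, 25.1 and 34.4 CPM in D10 TE. Its E4 values were 116, 64.8, 64.1, 101 and 111 CPM in ICM and 16.7, 52.04, 14.2, 23.1 and 34.5 CPM in TE. The ranges were apart at both times. Its tissue difference was 2.32 ± 0.27 (SE, adjusted p = 4.49e-07) at D10 and 1.74 ± 0.30 (SE, adjusted p = 8.04e-05) at E4, and its change over time was 0.58 ± 0.25 (SE, adjusted p = 0.0893) in ICM and 0.01 ± 0.30 (SE, adjusted p = 0.995) in TE. The other tested GINS subunits did not follow it past the threshold: Gins4 gave 0.18 ± 0.21 (SE, adjusted p = 0.581) at D10 and 0.37 ± 0.22 (SE, adjusted p = 0.201) at E4, and Gins3 -0.21 ± 0.45 (SE, adjusted p = 0.8) and 0.40 ± 0.53 (SE, adjusted p = 0.598).

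Cdc45, the other helicase activator, was at 104, 77.7, 5.34, 59.8 and 57.3 CPM in D10 ICM and 36.8, 19.6, 15.5, 35.2 and 31.8 CPM in D10 TE. Replicate 3 of ICM was the lowest of the 10, and the other 4 ICM libraries were above all TE libraries. The difference was 1.17 ± 0.37 (SE, adjusted p = 0.0189) at D10 and 0.68 ± 0.36 (SE, adjusted p = 0.155) at E4. Mcm10, which helps start unwinding, was higher in ICM at D10 by 0.81 ± 0.30 (SE, adjusted p = 0.0493). Tipin, which with Timeless holds the fork together, was higher in ICM by 0.78 ± 0.28 (SE, adjusted p = 0.0387) at D10 and 1.28 ± 0.30 (SE, adjusted p = 0.00209) at E4. Wdhd1, which links polymerase alpha to the helicase, was higher at E4 by 1.33 ± 0.37 (SE, adjusted p = 0.00672), and Timeless was called at neither time. At D10 the Cdc45 call was lost without replicate 1 or 2 of D10 ICM or D10 TE replicate 3 (log2 0.97 to 1.40, adjusted p up to 0.0637). Mcm10 lost it without replicate 1, 2 or 5 of D10 ICM or D10 TE replicate 3, 4 or 5 (log2 0.67 to 0.96, adjusted p up to 0.13), and Tipin without replicate 1, 2 or 4 of D10 ICM or D10 TE replicate 1 or 3 (log2 0.59 to 0.94, adjusted p up to 0.125). The Cdc45 call was also lost with limma voom and with thinned libraries (adjusted p up to 0.0873). Those of Mcm10 and Tipin were lost with no filter, with thinned libraries and without the D10 litter of replicate 3, and that of Tipin with the 2 groups fitted alone (adjusted p up to 0.247 and 0.154). None of the 8 tested genes of this role was called over time in either tissue.

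Pcna, the sliding clamp that tethers polymerases to DNA, was called in none of the 5 comparisons. It was at 118, 122, 53.4, 99.7 and 88.1 CPM in D10 ICM and 78.8, 78.4, 19.3, 53.6 and 63.6 CPM in D10 TE. The E4 libraries held 91.5, 82.3, 177, 136 and 65.6 CPM in ICM and 44.5, 116, 44.9, 59.6 and 48.3 CPM in TE. The groups overlapped at both times, and the tissue difference was 0.75 ± 0.33 (SE, adjusted p = 0.0952) at D10 and 0.86 ± 0.34 (SE, adjusted p = 0.0583) at E4. The annotation holds the near copies Pcna-ps1 and Pcna-ps2, the second with a row of its own, so the Pcna count is uncertain. Among the loaders of the clamp, Dscc1, part of an alternative loader, was higher in ICM by 1.68 ± 0.39 (SE, adjusted p = 0.00189) at D10 and 1.76 ± 0.47 (SE, adjusted p = 0.00561) at E4. Rfc5 was higher at D10 by 1.28 ± 0.34 (SE, adjusted p = 0.00601), though 499 of its last 500 exonic bases are shared with Wsb2 on the opposite strand. Rfc1, the large loader subunit, was higher in ICM at E4 by 0.81 ± 0.22 (SE, adjusted p = 0.00694).

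Rfc3, a small subunit of the clamp loader, differed by time in ICM. Its level was 18.1, 17.4, 10.7, 20.9 and 17.6 CPM in D10 ICM and 42.7, 34.9, 57.4, 55.2 and 28.7 CPM in E4 ICM, without overlap. In TE it was 14.01, 19.6, 15.5, 15.1 and 13.2 CPM at D10 and 16.7, 16.01, 18.9, 13.5 and 20.7 CPM at E4, much the same range. It fell in ICM by a log2 change of -1.31 ± 0.29 (SE, adjusted p = 0.00179), and gave -0.10 ± 0.33 (SE, adjusted p = 0.915) in TE. The difference of the changes was -1.22 ± 0.44 (SE, adjusted p = 0.11), short of the threshold. Its ICM excess was 0.21 ± 0.31 (SE, adjusted p = 0.684) at D10 and 1.42 ± 0.31 (SE, adjusted p = 0.000902) at E4. Only the E4 ICM libraries reached the level that the filter on low counts requires. Rfc3 was thus tested because it was high in that group, which limits its fall in ICM and its E4 excess.

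RPA coats single-stranded DNA at the fork, and its 3 subunits had unlike calls. Rpa2 was higher in ICM by 1.47 ± 0.31 (SE, adjusted p = 0.000959) at D10 and 1.56 ± 0.35 (SE, adjusted p = 0.00134) at E4. Rpa1 was higher at E4 by 0.86 ± 0.23 (SE, adjusted p = 0.00601) and gave 0.33 ± 0.22 (SE, adjusted p = 0.289) at D10; the E4 call was lost with no filter (adjusted p = 0.0745). Rpa3, the smallest subunit, averaged 20.1 ± 7.08 CPM in D10 ICM, 13.1 ± 5.55 in D10 TE, 20.98 ± 10.8 in E4 ICM and 32.2 ± 13.4 in E4 TE (SD, n = 5 each). It fell over time in TE by a log2 change of -1.23 ± 0.42 (SE, adjusted p = 0.0345), with every D10 TE library below every E4 TE library. That call was lost without E4 TE replicate 1 or 3 or D10 TE replicate 1, 2 or 4 (log2 -1.50 to -1.02, adjusted p up to 0.0999), and also with no filter and without the E4 litters with a zona (adjusted p up to 0.0998).

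The primase and polymerase genes that passed the test between tissues were all higher in ICM. The 9 of them summed to 452, 398, 283, 335 and 308 CPM in D10 ICM and 273, 219, 203, 303 and 217 CPM in D10 TE. At E4 they summed to 359.9, 347, 448, 341 and 324 CPM in ICM and 189, 188, 161, 221 and 159 CPM in TE. The sums overlapped at D10 and were apart at E4. Of 7 tested genes, 2 were higher in ICM at D10 and 3 at E4. Pola1, the catalytic subunit of polymerase alpha that extends primers, was higher by 1.41 ± 0.41 (SE, adjusted p = 0.0129) at D10 and 1.89 ± 0.46 (SE, adjusted p = 0.0026) at E4. The D10 call was lost without the D10 litter of replicate 3 (adjusted p = 0.0575), and the E4 call with limma voom (adjusted p = 0.056). Pold2, an accessory subunit of the lagging-strand polymerase delta, averaged 25.4 ± 8.04 CPM in D10 ICM, 11.4 ± 7.196 in D10 TE, 26.6 ± 6.36 in E4 ICM and 5.01 ± 1.26 in E4 TE. Its difference was 1.18 ± 0.37 (SE, adjusted p = 0.0179) at D10, lost without replicate 2 of D10 ICM or D10 TE replicate 3 or 4 (log2 0.97 to 1.60, adjusted p up to 0.0902) and with no filter (adjusted p = 0.0797), and 2.44 ± 0.48 (SE, adjusted p = 0.000393) at E4. The E4 TE mean lay below the level of 3 counts in every E4 TE library, 5.76 to 20.7 CPM. The size of the E4 difference of Pold2 thus rests on few TE counts. The means of both TE groups also lay below the level that the filter on low counts requires. Pold2 was thus tested through its ICM libraries, which limits its ICM excess at both times. Pole, the catalytic subunit of the leading-strand polymerase epsilon, gave 0.46 ± 0.41 (SE, adjusted p = 0.45) at D10 and 1.11 ± 0.48 (SE, adjusted p = 0.0788) at E4.

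Prim1, the catalytic subunit of primase, was the member of this role that rose over time in TE. It was at 84.04, 62.7, 63.8, 90.4 and 87.4 CPM in D10 TE and 16.7, 24.02, 44.9, 36.5 and 41.4 CPM in E4 TE, without overlap. In ICM it was at 118, 160.1, 96.1, 92.7 and 88.1 CPM at D10 and 109.8, 74.8, 137, 80.8 and 73.8 CPM at E4, with overlap. The log2 change was 1.19 ± 0.27 (SE, adjusted p = 0.00238) in TE and 0.24 ± 0.24 (SE, adjusted p = 0.509) in ICM, and the difference of the changes, -0.96 ± 0.36 (SE, adjusted p = 0.133), was short of the threshold. Its ICM excess was 0.54 ± 0.23 (SE, adjusted p = 0.0936) at D10 and 1.498 ± 0.28 (SE, adjusted p = 0.000192) at E4. Without the 2 E4 litters that still had a zona, the rise in TE was 0.90 on the log2 scale and just missed the threshold (adjusted p = 0.05002).

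Lig1, the ligase that seals Okazaki fragments, was higher in ICM at both times. It was at 276, 229.8, 182, 185 and 401 CPM in D10 ICM and 98.04, 102, 118, 107 and 138 CPM in D10 TE. Its level at E4 was 195, 192, 205, 162 and 205 CPM in ICM and 61.1, 136, 85.1, 99.9 and 96.6 CPM in TE. No ICM library overlapped the TE libraries of its time. The difference was 1.18 ± 0.22 (SE, adjusted p = 0.000197) at D10 and 1.003 ± 0.23 (SE, adjusted p = 0.00167) at E4, and the change over time was 0.40 ± 0.22 (SE, adjusted p = 0.188) in ICM and 0.22 ± 0.23 (SE, adjusted p = 0.533) in TE.

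The nucleotide genes split by enzyme. Their 5 genes summed to 1357, 1675, 961, 1535 and 934 CPM in D10 ICM and 886, 968, 522, 552 and 773 CPM in D10 TE. At E4 they summed to 1989, 1346, 1436, 1715 and 1321 CPM in ICM and 745, 1089, 758, 782 and 717 CPM in TE. Dut, the dUTPase that keeps uracil out of DNA, was at 271, 447, 454, 407 and 291 CPM in D10 ICM and 123, 241, 174, 110.5 and 241 CPM in D10 TE. The lowest ICM library was above the highest TE library, as it was at E4, with 744, 496, 513, 617 and 513 CPM in ICM and 228, 280.2, 158, 154 and 179 CPM in TE. Its difference was 1.097 ± 0.24 (SE, adjusted p = 0.00104) at D10 and 1.55 ± 0.24 (SE, adjusted p = 2.85e-05) at E4. In ICM its change over time was -0.61 ± 0.23 (SE, adjusted p = 0.0561).

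Rrm2 and Rrm1 are the subunits of ribonucleotide reductase, with Rrm2 the one whose level follows S phase in cycling cells. Rrm2 was at 760.2, 702, 246, 704 and 436 CPM in D10 ICM and 341, 313, 98.7, 184 and 156 CPM in D10 TE. Replicate 3 was the lowest of both groups, and in ICM it fell among the TE libraries. At E4 Rrm2 was at 665, 444, 504, 680.1 and 369 CPM in ICM and 239, 304, 262, 334 and 241 CPM in TE, without overlap. It was higher in ICM by 1.398 ± 0.30 (SE, adjusted p = 0.000963) at D10 and 0.95 ± 0.30 (SE, adjusted p = 0.0182) at E4. The E4 call was lost without replicate 1 or 4 of E4 ICM or E4 TE replicate 1 (log2 0.80 to 1.03, adjusted p up to 0.0638). Rrm1 averaged 139.9 ± 56.5 CPM in D10 ICM, 175 ± 46.5 in D10 TE, 211 ± 35.7 in E4 ICM and 116 ± 28.8 in E4 TE (SD, n = 5 each). It was higher in ICM at E4 by 0.88 ± 0.26 (SE, adjusted p = 0.0102) and gave -0.25 ± 0.24 (SE, adjusted p = 0.503) at D10, with a difference of the changes of -1.13 ± 0.35 (SE, adjusted p = 0.0627).

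The thymidylate enzymes were called at neither time between tissues. Tyms, which makes thymidylate from dUMP, gave 0.48 ± 0.25 (SE, adjusted p = 0.175) at D10 and -0.08 ± 0.25 (SE, adjusted p = 0.838) at E4. Tk1, the salvage kinase for thymidine, gave 0.32 ± 0.34 (SE, adjusted p = 0.535) and 0.15 ± 0.35 (SE, adjusted p = 0.78). Tyms fell over time in TE: it was at 47.3, 35.3, 32.9, 33.5 and 45.03 CPM in D10 TE and 61.1, 100.1, 61.4, 67.3 and 48.3 CPM in E4 TE, without overlap. The log2 change was -0.81 ± 0.25 (SE, adjusted p = 0.0213) in TE and -0.26 ± 0.25 (SE, adjusted p = 0.5) in ICM. The TE call was lost without E4 TE replicate 2 (log2 -0.92 to -0.67, adjusted p up to 0.0753), and also with no filter and without the E4 litters with a zona (adjusted p up to 0.118).

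The largest ICM excess of the 49 at E4 belonged to Msh6, which takes part in recognising mismatches left by replication. The gene lies at chr17:87975062-87990892 (plus strand). It was at 18.1, 22.2, 32.05, 39.9 and 30.8 CPM in D10 ICM and 21.01, 33.3, 25.1, 21.8 and 15.9 CPM in D10 TE, and these overlapped. In E4 ICM it was at 116, 82.3, 92.8, 74.9 and 86.2 CPM, and in E4 TE at 27.8, 16.01, 9.45, 9.61 and 27.6 CPM. The E4 ICM libraries stood above all 15 others. Its tissue difference was 0.33 ± 0.30 (SE, adjusted p = 0.466) at D10 and 2.52 ± 0.33 (SE, adjusted p = 2.72e-06) at E4. It fell over time in ICM, by a log2 change of -1.58 ± 0.28 (SE, adjusted p = 0.000253), and gave 0.61 ± 0.36 (SE, adjusted p = 0.232) in TE. The difference of the changes was -2.19 ± 0.45 (SE, adjusted p = 0.00444). The E4 TE values lay little above the level of 3 counts in those libraries, 5.76 to 20.7 CPM. The sizes of the E4 difference and of the difference of the changes thus rest on few TE counts. Msh6 shares 34 of its last 500 exonic bases with Fbxo11 on the opposite strand, whose tissue difference ran the other way, -1.02 ± 0.34 (SE, adjusted p = 0.0267) at D10 and -1.31 ± 0.34 (SE, adjusted p = 0.00442) at E4.

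Ung, which removes uracil that slipped into new DNA, was at 163, 64.98, 21.4, 53.8 and 66.1 CPM in D10 ICM and 29.8, 33.3, 7.74, 43.5 and 13.2 CPM in D10 TE. At E4 it was at 201, 127, 205, 142 and 144 CPM in ICM and 11.1, 56.05, 21.3, 42.3 and 34.5 CPM in TE. Replicate 1 of D10 ICM was far above its group, and the ICM and TE libraries were apart at E4 and overlapped at D10. The difference was 1.46 ± 0.41 (SE, adjusted p = 0.00958) at D10 and 2.27 ± 0.41 (SE, adjusted p = 0.000162) at E4. Ung fell over time in ICM by 1.17 ± 0.37 on the log2 scale (SE, adjusted p = 0.0237) and gave -0.36 ± 0.46 (SE, adjusted p = 0.624) in TE. The fall was lost without replicate 1 or 3 of E4 ICM or D10 ICM replicate 2, 3 or 4 (log2 -1.57 to -0.98, adjusted p up to 0.0663) and without the E4 litters with a zona (adjusted p = 0.062), and the D10 tissue call without D10 ICM replicate 1 (log2 1.03 to 1.74, adjusted p up to 0.0546).

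Cdc25a, at chr9:109875579-109893895 (plus strand), was the 1 gene of the 49 lower in ICM at D10. It encodes the phosphatase that activates Cdk2 with cyclin E or A at S phase entry. It was at 113, 98.3, 85.5, 114 and 39.6 CPM in D10 ICM and 205, 163, 132, 186 and 159 CPM in D10 TE. Its E4 values were 109.8, 87.3, 97.2, 101 and 115 CPM in ICM and 50.02, 40.03, 66.2, 30.7 and 20.7 CPM in TE. Every D10 TE library was above every D10 ICM library, and every E4 TE library was below every E4 ICM library. The tissue difference was -0.86 ± 0.24 (SE, adjusted p = 0.00804) at D10 and 1.25 ± 0.28 (SE, adjusted p = 0.00116) at E4. It rose over time in TE, by 1.98 ± 0.26 (SE, adjusted p = 6.32e-06), and gave -0.13 ± 0.25 (SE, adjusted p = 0.755) in ICM, with a difference of the changes of -2.103 ± 0.36 (SE, adjusted p = 0.000784).

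Ccne1, which encodes cyclin E1, the partner of Cdk2 at the entry into S phase, varied widely between libraries. It was at 136, 80.8, 0, 127 and 57.3 CPM in D10 ICM and 82.3, 45.1, 9.67, 92.1 and 21.2 CPM in D10 TE. The E4 libraries held 36.6, 54.9, 28.7, 67.03 and 41.02 CPM in ICM and 11.1, 20.02, 16.5, 13.5 and 0 CPM in TE. A count of 0 allows up to 16.02 CPM in D10 ICM replicate 3 and 20.7 CPM in E4 TE replicate 5, for counting error only. The ranges overlapped at D10, and at E4 all ICM libraries were above all TE libraries. Ccne1 rose over time in TE by 1.901 ± 0.64 (SE, adjusted p = 0.0336), and was higher in ICM at E4 by 1.78 ± 0.66 (SE, adjusted p = 0.0427). The E4 call held with 1 of the 10 libraries left out, E4 ICM replicate 3, and was lost without any 1 of the other 9 (log2 1.53 to 1.90, adjusted p up to 0.115). The rise in TE was lost without E4 TE replicate 1, 3, 4 or 5 or D10 TE replicate 1 or 4 (log2 1.55 to 2.15, adjusted p up to 0.103). Both calls were also lost with limma voom and without the E4 litters with a zona (adjusted p up to 0.226 at E4 and 0.319 in TE). Cdk2 itself was called in none of the comparisons, with 0.69 ± 0.32 (SE, adjusted p = 0.12) at D10 and 0.11 ± 0.32 (SE, adjusted p = 0.831) at E4.

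Of the chromatin genes, Chaf1b, a subunit of the CAF-1 histone chaperone, was higher in ICM at D10 by 0.99 ± 0.35 (SE, adjusted p = 0.0375) and gave 0.83 ± 0.39 (SE, adjusted p = 0.109) at E4. The D10 call was lost without replicate 1, 2 or 4 of D10 ICM or D10 TE replicate 1, 2, 3 or 5 (log2 0.86 to 1.12, adjusted p up to 0.114). Slbp, which binds the stem-loop of histone mRNA, was called in none of the comparisons. Its level was 78.5 ± 20.01 CPM in D10 ICM, 75.9 ± 15.9 in D10 TE, 76.8 ± 18.9 in E4 ICM and 88.2 ± 12.9 in E4 TE (SD, n = 5 each).

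**Figure D3:**
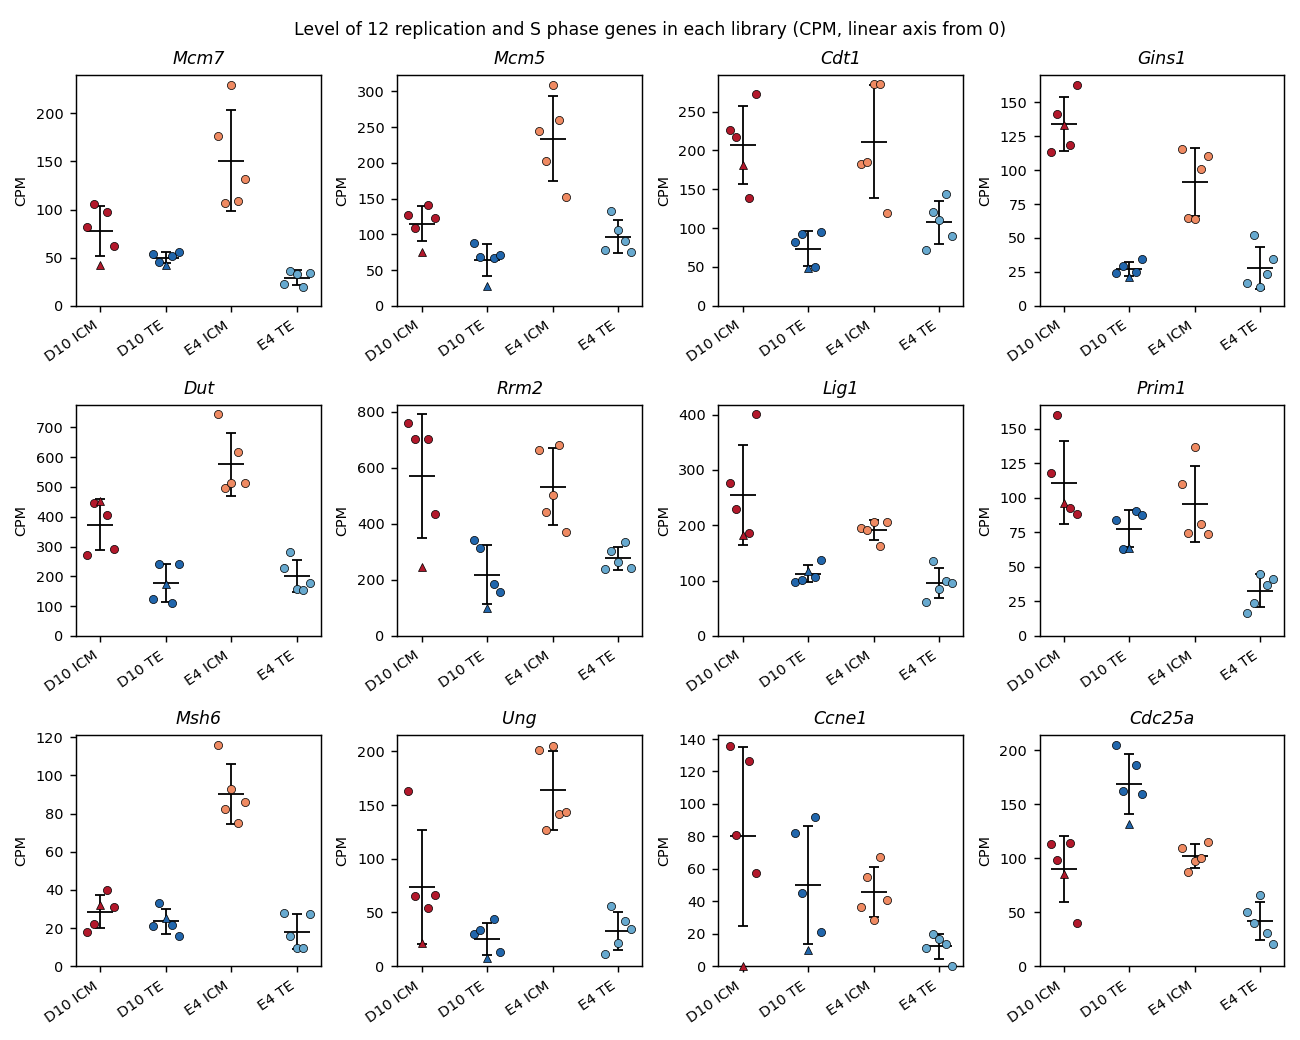
CPM of 12 genes in each of the 20 libraries, on linear axes from 0, by group; points are libraries, triangles mark replicate 3 at D10, and lines are mean ± SD (n = 5). The E4 ICM points of Msh6 stand above all others, at 74.9 to 116 CPM, while Cdc25a is highest in D10 TE, at 132 to 205 CPM.

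Over time, few replication genes were called in either tissue. In ICM, D10 against E4, 0 of the 49 rose, where 13.7% of all tested genes did, and 5 fell, where 9.97% of all did: Msh6, Rfc3, Mcm5, Mcm7 and Ung. Of these, Rfc3 passed the filter on low counts only through its E4 ICM libraries. In TE 3 rose, where 11.9% of all did, and 2 fell, where 9.89% did. Cdc25a, Prim1 and Ccne1 were the 3 that rose, and Tyms and Rpa3 the 2 that fell. Those counts are close to or below the share of all genes in the same comparison. The median log2 change over the 49 was -0.19 in ICM and 0.12 in TE, against -0.0031 and 0.021 over all tested genes, and 35 of the 49 had a negative estimate in ICM and 23 in TE. The TE median changed sign with the stricter filter on low counts (-0.049 over 30 genes) and with the 2 TE groups fitted alone (-0.10 over 39 genes). The change in ICM was lower than that in TE for Cdc25a, Msh6 and Mcm7, where 1.83% of all tested genes had such a call, and higher for 0 of the 49, where 3.15% of all had one. These comparisons share their libraries: the 5 genes that fell in ICM and the 3 that rose in TE were all among the 27 higher in ICM at E4.

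**Figure D4:**
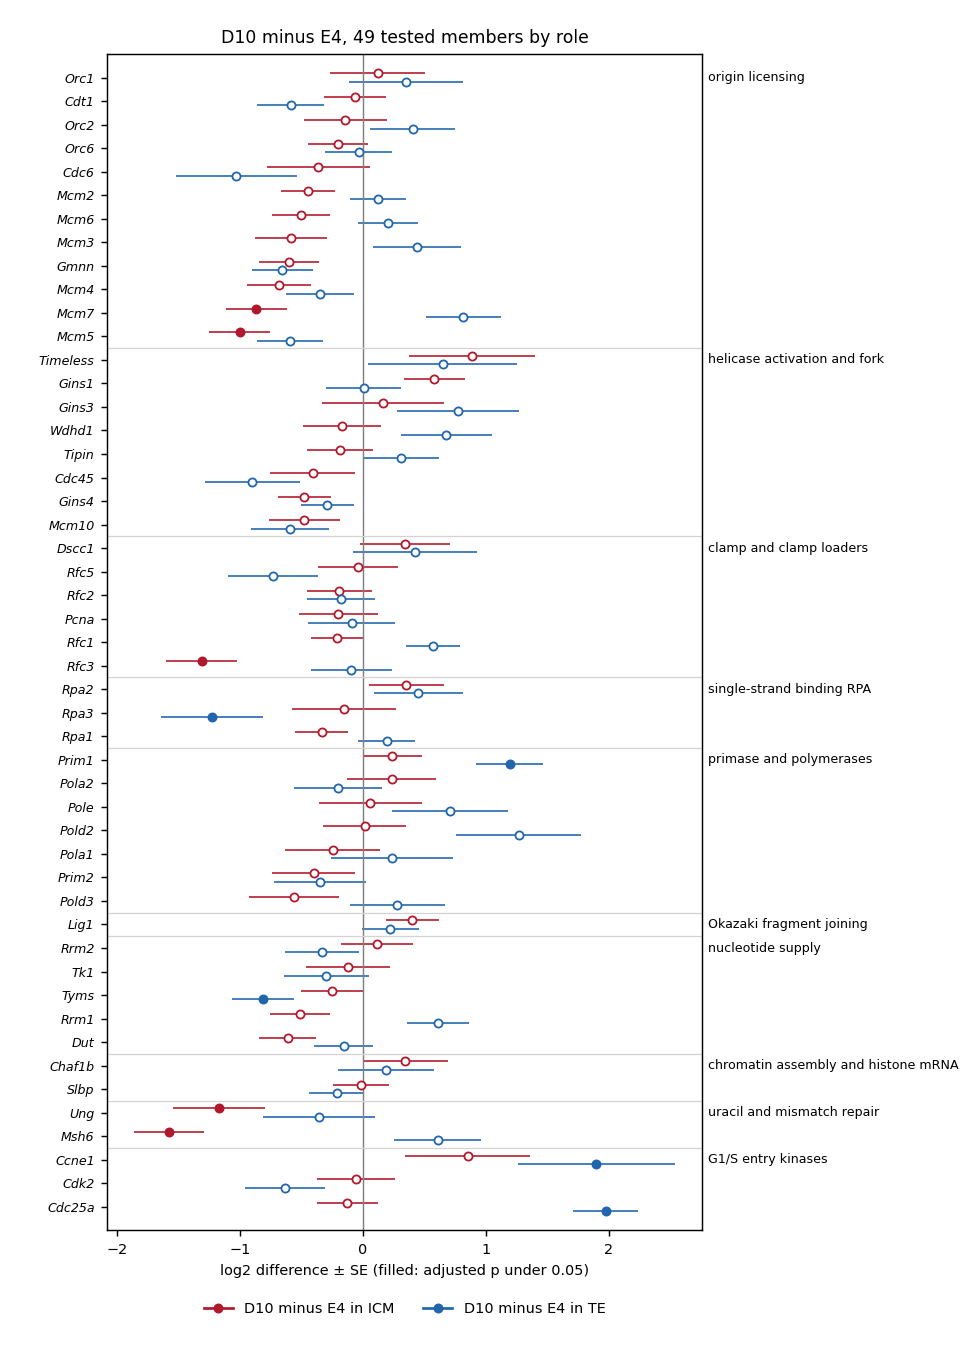
Log2 change D10 minus E4 of the 49 tested genes, ordered by role, in ICM (red) and TE (blue). Points are estimates, bars are SE, and filled points passed the test: 5 lower in ICM, 3 higher and 2 lower in TE.

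Marker levels moved in both tissues over the same interval. In ICM, 6 of the 10 epiblast and inner cell mass markers fell and 0 rose, with sums of 1104 to 1709 CPM in D10 ICM and 2478 to 3886 CPM in E4 ICM. The 10 primitive endoderm markers summed to 9078 ± 1295 CPM in D10 ICM, in a range of 7697 to 10662 CPM, and 2855 ± 983 CPM in E4 ICM, in a range of 1928 to 4367 CPM. Of these, 6 rose, Sparc, Dab2, Cubn, Lama1, Col4a1 and Amn. The 1 that fell was Gata6, by a log2 change of -1.04 ± 0.30 (SE, adjusted p = 0.0139), and Gata4, Sox17 and Pdgfra were not called. Sparc was the largest part of these sums, at 4488 ± 1177 CPM in D10 ICM and 1121 ± 508 CPM in E4 ICM (SD, n = 5 each). Of the 10 trophectoderm markers 4 rose and 0 fell. None of the 3 lists had a marker at 0 in all libraries of either ICM group. The part of these shifts in the ICM changes of Msh6, Rfc3, Mcm5, Mcm7 and Ung was not tested. Of the 10 epiblast and inner cell mass markers, 9 had a negative estimate over time in ICM, and the median log2 change was -1.52. The 1 with a positive estimate was Sox2, with a log2 change of 0.10 ± 0.36 (SE, adjusted p = 0.871). Sox2 averaged 289 ± 184 CPM in D10 ICM and 265 ± 95.5 CPM in E4 ICM (SD, n = 5 each). In TE, 1 epiblast marker rose, Klf2, and 1 fell, Dppa5a, with list sums of 527 to 1031 CPM in D10 TE and 1000.2 to 3560.5 CPM in E4 TE. Of the primitive endoderm markers, Dab2 and Lama1 rose in TE and 0 fell. Their list sums were 2585 to 3754 CPM in D10 TE and 1017 to 1434 CPM in E4 TE, where Cubn had 0 counts. Dab2 made up most of these sums, at 2498 ± 275 CPM in D10 TE and 919 ± 151 CPM in E4 TE (SD, n = 5 each). It was lower in ICM than in TE at E4 by a log2 difference of -1.41 ± 0.25 (SE, adjusted p = 0.000109). Of the trophectoderm markers, Cdx2 and Tfap2c rose and Eomes fell, with sums of 8581 to 10960 CPM in D10 TE and 8160 to 11225 CPM in E4 TE. The part of these shifts in the TE changes of Cdc25a, Prim1, Ccne1, Tyms and Rpa3 was not tested.

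The libraries of D10 litter G, replicate 3 in both tissues, were low across the replication genes. Replicate 3 had the lowest value of its group for 29 of the 49 tested genes in D10 ICM and for 27 in D10 TE. Its summed level over the 55 genes was 3461 CPM in ICM, where the other 4 ran from 4577 to 5778 CPM. In TE it was 2240.1 CPM, where the others ran from 2955 to 3446 CPM. Replicate 3 of D10 ICM had 223770 counts, the second lowest total of its group, and the fewest genes with a count, 10795, and the lowest TMM factor, 0.837, of its group. In D10 TE it had 572908 counts, the second highest total. Replicate 3 of D10 ICM also had the highest trophectoderm sum of its group, 6036 CPM, and the lowest primitive endoderm sum, 7697 CPM; the part of these in its level was not tested. Without this litter in both tissues, an alternative added after the data were seen, 16 of the 49 were higher in ICM at D10, 5 were lower and 1 was higher over time in ICM, and 3 were higher and 2 lower in TE. Leaving out D10 ICM replicate 1, replicate 2 of D10 ICM or D10 TE replicate 3 alone left 12, 13 and 13 genes higher in ICM at D10. As the shares over all genes with these libraries left out are not given here, these counts do not show whether the excess changed.

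Related genes outside the 56 were also more often higher than lower in ICM. From 94 further genes of licensing, replisome, nucleotide, chromatin, E2F and checkpoint lists, 69 were tested, and 16 were higher and 2 lower in ICM at D10, 35 higher and 2 lower at E4. Over all tested genes, 12.9% were higher and 12.6% lower at D10, and 15.8% and 15.4% at E4. The median difference of the 69 was 0.47 at D10 and 0.98 at E4. Uhrf1, which carries DNA methylation through replication, averaged 54.3 ± 30.6 CPM in D10 ICM, 38.6 ± 18.6 in D10 TE, 168 ± 32.04 in E4 ICM and 18.9 ± 6.71 in E4 TE (SD, n = 5 each). It fell over time in ICM by a log2 change of -1.68 ± 0.32 (SE, adjusted p = 0.00048), and its change in ICM was below that in TE by -2.76 ± 0.52 (SE, adjusted p = 0.00167). Hells, a remodeller that works with it, gave -1.100 ± 0.28 (SE, adjusted p = 0.006) in ICM and -2.38 ± 0.45 (SE, adjusted p = 0.00191) for the difference of the changes. Over time 2 of the 69 rose and 12 fell in ICM, 10 rose and 4 fell in TE, and the change in ICM was lower for 7 and higher for 0. Over all tested genes the shares were 13.7% up and 9.97% down in ICM, 11.9% and 9.89% in TE, and 1.83% lower and 3.15% higher for the difference of the changes, and the TE counts of the 69 stood near or below theirs.

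By list, 3 of 15 other licensing and firing factors were higher in ICM at D10, with Dbf4 at 1.18 ± 0.28 (SE, adjusted p = 0.00223), and 8 higher and 1 lower at E4, with Dtl at 2.15 ± 0.37 (SE, adjusted p = 7.23e-05). Of 12 other replisome and polymerase subunits, 2 were higher at D10 and 7 at E4. Of 11 other nucleotide enzymes, 4 were higher at D10 and 7 at E4, with Dctpp1, a dCTP pyrophosphatase, at 1.12 ± 0.26 (SE, adjusted p = 0.00188) and 2.05 ± 0.30 (SE, adjusted p = 1.01e-05). Of 12 replication-coupled chromatin genes, 2 were higher and 1 lower at D10 and 6 higher at E4; the lower one was Rbbp7, a histone-binding protein, at -1.26 ± 0.24 (SE, adjusted p = 0.000301). Of 9 checkpoint genes, 1 was higher at D10, Chek1, at 1.75 ± 0.40 (SE, adjusted p = 0.00195), and 3 at E4, with Brca1 at 2.13 ± 0.47 (SE, adjusted p = 0.00104). The shares over all tested genes were 12.9% higher and 12.6% lower in ICM at D10, and 15.8% and 15.4% at E4. At D10 the counts of the licensing and firing, replisome, chromatin and checkpoint lists stood near or below these shares. Of 10 genes of the E2F and retinoblastoma family, 4 were higher and 1 lower at each time. E2f8, which encodes a repressor of the family, was the lower one. It was at 45.2, 15.8, 10.7, 31.9 and 13.2 CPM in D10 ICM and 92.8, 99.9, 77.4, 78.7 and 90.1 CPM in D10 TE. In E4 ICM it was at 12.2, 19.9, 22.1, 55.2 and 45.1 CPM and in E4 TE at 139, 212, 234, 208 and 255 CPM, so the tissues were apart at both times. Its difference was -1.83 ± 0.32 (SE, adjusted p = 0.000115) at D10 and -2.67 ± 0.31 (SE, adjusted p = 7.29e-07) at E4, and it fell over time in TE by a log2 change of -1.25 ± 0.27 (SE, adjusted p = 0.00148).

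Promoter sequence was examined because many replication genes are E2F targets. RefSeq promoter windows on GRCm38.p6, 250 bases before to 50 after the start, were given for 45 of the 56 genes. They were searched on both strands for the E2F-type letters TTTCCCGC, TTTGGCGC and TTTCGCGC, which can overlap each other, and for CCAAT. An E2F-type match lay in 17 of the 45 (37.8%), against 573 of all 27025 genes with a window (2.12%) and 263 of 5457 tested genes with one (4.82%). CCAAT lay in 27 of the 45, against 41.1% of all genes with a window and 43.3% of the tested ones. A gene with more than 1 window, as Lig1, Mcm7, Orc2, Pold2 and Fen1 have, counts where any of them holds the letters. By role, 7 of 10 licensing genes, 4 of 7 primase and polymerase genes and 0 of 5 nucleotide genes had an E2F-type match. Of the genes higher in ICM at E4, 10 of 23 with a window had one, and of those not called, 5 of 17. At D10 this held for 7 of 17 called higher and 7 of 22 not called. Among the genes called higher in ICM, the median log2 difference was 1.35 with a match and 1.33 without at E4, and 1.18 and 1.18 at D10. Among the 5 genes that fell in ICM, 4 had a match and Ung had none. Of the genes not called over time in ICM, 11 of 35 with a window had a match. Rfc3, among the 4, passed the filter on low counts only through its E4 ICM libraries. Of the 3 that rose in TE, 1 had a match, Cdc25a, while Prim1 and Ccne1 had none. Of the 2 that fell in TE, Tyms and Rpa3, 0 had one, and of those not called over time in TE, 14 of 35 did. All 3 genes whose changes differed between the tissues had one, as did 12 of 37 whose changes were not called different. Whether matches and calls go together was not tested. Of the 23 matches, 14 began within 50 bases of the start.

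Stretches of promoter are printed here, for the E2F-type letters they hold, for 5 genes that changed over time or differed in their change, Msh6, Mcm7, Cdc25a, Mcm5 and Rfc3, and for the ring subunits Mcm6 and Mcm3. Each is read 5′ to 3′ along the gene, and capitals mark E2F-type matches on either strand.
Msh6: gcgcctcctcccgacTTTCCCGCcagcggc
Mcm7: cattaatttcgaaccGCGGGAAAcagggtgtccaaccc
Mcm7: acatgggtgacgacgTTTCGCGCcaattt
Cdc25a: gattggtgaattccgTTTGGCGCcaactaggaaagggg
Mcm5: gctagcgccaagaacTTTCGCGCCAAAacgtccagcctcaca
Rfc3: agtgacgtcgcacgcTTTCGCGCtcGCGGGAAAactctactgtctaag
Mcm6: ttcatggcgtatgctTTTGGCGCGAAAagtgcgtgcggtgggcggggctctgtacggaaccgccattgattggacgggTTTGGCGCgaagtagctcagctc
Mcm3: gtgGCGGGAAAacttgggaagtTTTGGCGC
The Msh6 window is chr17:87975050-87975079 (plus strand), from base 1 to 30 counted from the start. Those of Mcm7 are chr5:138172026-138172063 (minus strand), from -180 to -143, and chr5:138171854-138171882 (minus strand), from 2 to 30. Cdc25a is shown at chr9:109875497-109875534 (plus strand), from -82 to -45, and Mcm5 at chr8:75109341-75109382 (plus strand), from -168 to -127. Rfc3 is shown at chr5:151651186-151651233 (minus strand), from -25 to 23, with matches on both strands close to the start. Mcm6 is shown at chr1:128359730-128359830 (minus strand), from -125 to -25, and Mcm3 at chr1:20820267-20820296 (minus strand), from 17 to 46. In Mcm5 and Mcm6 the letters TTTCGCGC or TTTGGCGC on one strand overlap a match on the other. A match describes letters in this window and is not a measured binding site.

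**Figure D5:**
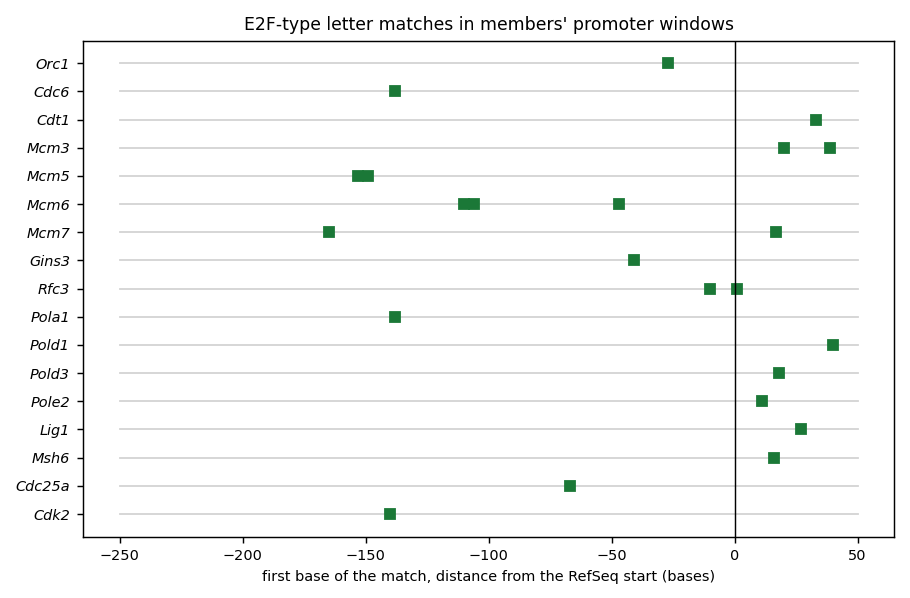
Position of each E2F-type letter match (squares) in the promoter windows of the 17 genes that hold one, as distance in bases of its first base from the RefSeq start; grey lines are the windows searched. The 23 matches begin between -165 and 40, with 14 within 50 bases of the start.

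The 6 genes in the table that were not tested were sparse. Over all 20 libraries Chaf1a had 8 counts, Gins2 36, Ccne2 49, Rfc4 53, Pold1 103 and Pole2 144. Pold1, the catalytic subunit of polymerase delta, was at 18.1, 17.4, 5.34, 20.9 and 13.2 CPM in D10 ICM and 19.3, 1.96, 1.93, 15.1 and 15.9 CPM in D10 TE. In E4 ICM it was at 6.101, 12.5, 15.5, 31.5 and 8.205 CPM and in E4 TE at 0, 0, 2.36, 3.84 and 6.898 CPM, values that rest on few counts each. The 3′ end of Gins2 is shared with Gse1, of Rfc4 with Eif4a2, of Ccne2 with Ints8 and of Chaf1a with Ubxn6, each on the opposite strand, and that of Pole2 with Gm49384 on the same strand, so these counts are uncertain. Of the 49 tested genes, 15 were called in none of the 5 comparisons, namely Orc1, Orc2, Gmnn, Gins3, Gins4, Timeless, Pcna, Rfc2, Pola2, Prim2, Pold3, Pole, Tk1, Slbp and Cdk2.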

How the data were processed

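Polyadenylated RNA of 20 dissected tissue samples, 4 groups of 5, was sequenced from the 3′ end by BRB-seq, per the labels' protocols, with a 10-base UMI and a 9-base barcode in read 1. The values are raw counts per gene and library, deposited by the authors as 1 table. Tools in the submitters' processing notes are HISAT2 2.2.1, featureCounts 2.0.1, Trim Galore 0.6.7 and UMI-tools, and builds GRCh38 and GRCm38 stand there without a role; whether UMIs were collapsed, whether strand was used and which annotation was counted is not given in the sources used here. Litter and zona, deposited in a barcode list as labels with no other unit, pair ICM and TE libraries of the same number within a time. The correlation over genes of the deviations of 2 libraries of 1 litter averaged 0.168 at D10, in a range of -0.0302 to 0.293, and 0.177 at E4, in a range of 0.104 to 0.263 (5 pairs each); the D10 pair of replicate 5 was the 1 below 0.

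All 4 groups were fitted in 1 model with edgeR 4.0.16 in R 4.3.3: TMM scaling, filterByExpr with a minimum count of 10, quasi-likelihood test, Benjamini-Hochberg adjustment over 6943 genes in each of 5 comparisons, threshold 0.05. As separate embryos are not stated, p-values measure only the spread among libraries. Where a library has 0 counts, up to 3 are allowed by counting error alone, and totals of 144276 to 1010354 counts set the precision. Alternatives were DESeq2 1.42.0 (size factors and Wald test), limma 3.58.1 (voom), no filter, a minimum count of 30, libraries thinned to 144276 counts, the 2 groups alone, no zona litters, litter as a block, each library left out, and, added later, no D10 litter of replicate 3. The test was checked on simulated data, where it found 38% of 2-fold differences between tissues at E4 and 52% at D10. Of 4-fold differences it found 92% and 97%. Changes over time were not simulated. Of 21470 gene IDs, 21442 were found in GENCODE vM21, which gave positions and overlaps; promoters are from RefSeq on GRCm38.p6. Genes were named by a rule: 22 set genes of the 56 in full, up to 2 more called genes per role and comparison with the smallest adjusted p, and up to 2 per further list; 1 gene is not reported here. The members and lists were chosen with earlier results of these data known.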

Additional observations from a re-analysis of the deposited data

Results flagged for a closer look

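In 6 cases, 1 library stood apart from the other 4 of its group by a gap above Dixon's critical value, among 88 gene and group combinations examined; chance gives such a gap in about 1 in 20 groups. Cdc45 was at 5.34 CPM in D10 ICM replicate 3, with the others at 57.3 to 104 CPM. Ccne1 was at 0 in the same library, with the others at 57.3 to 136 CPM. In D10 TE, replicate 3 held 27.1 CPM of Mcm5, with the others at 66.96 to 87.5 CPM, and 19.3 CPM of Pcna, with the others at 53.6 to 78.8 CPM. These 4 are libraries of 1 litter. E4 TE replicate 5, the library of lowest total, held 41.4 CPM of Mcm4, with the others at 88.9 to 112 CPM, and 0 of Ccne1, with the others at 11.1 to 20.02 CPM. A count of 0 allows up to 20.7 CPM in that library, above the other 4, so this gap of Ccne1 lies within counting error.

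The change D10 minus E4 differed between ICM and TE for Mcm7 by -1.69 on the log2 scale, for Msh6 by -2.19 and for Cdc25a by -2.10, by the interaction term of the fit, with adjusted p of 0.0112, 0.00444 and 0.000784. Mcm7 and Msh6 fell in ICM, and Cdc25a rose in TE. Each kept its call with any 1 of the 20 libraries left out, with adjusted p up to 0.0399, 0.0166 and 0.00384. The size of the difference for Msh6 rests on few counts in E4 TE.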

How the results depend on the processing

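With 1 library left out at a time, 12 to 21 genes were higher in ICM at D10 and 25 to 29 at E4, 3 to 6 fell in ICM over time, 2 to 3 rose and 1 to 3 fell in TE, and 3 to 4 had a lower change in ICM than in TE. At D10, 9 genes were higher in ICM with libraries thinned to 144276 counts. In ICM 1 gene rose over time with limma voom, and 1 without the D10 litter of replicate 3. In TE 5 rose with the stricter filter and 1 without the E4 litters with a zona, and 0 fell with no filter, with the stricter filter, in thinned libraries and without the zona litters; the cause was not tested. With litter as a replicate block, the pairing given by the barcode list, 24 genes were higher and 1 lower in ICM at D10, 31 were higher at E4, and 4 had a lower change in ICM; it ended no call. Of the 21, 27, 5, 5 and 3 calls in the 5 comparisons (D10, E4, ICM, TE, difference of changes), 10, 18, 3, 1 and 3 held under each alternative that tested the gene and each left-out library, and 0 of these estimates changed sign. Of those that held, Rfc5 and Dscc1 at D10, Mcm3, Rfc3, Dscc1 and Pold2 at E4 and Rfc3 in ICM were tested in 6 to 8 of the 9 alternatives. Counts over all genes at D10 ICM against TE ranged most with thinning, to 420 higher and 456 lower. Shares over all genes are not given here for each alternative, so the counts of replication genes do not show how their excess changed. Low counts limit the 6 untested genes, overlaps and unstated strand use limit Orc2 and Rfc5, and pool and group cannot be told apart.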
